A study of Mus musculus with 2 samples.

Results

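Laminins and integrins are the chains through which kidney cells build and hold on to their basement membrane. The genes were those whose symbol on the platform is a laminin alpha, beta or gamma chain (Lama, Lamb, Lamc) or an integrin alpha or beta subunit (Itga, Itgb), read by probe sets that name 1 gene. By this rule 34 of 18193 named genes were members, 10 laminin and 24 integrin chains, read by 73 of 45037 probe sets. Of the 34, 28 were measured, meaning that the signal lay above the median probe set of its array on at least 1 array. The other 6 were all integrins.

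A laminin is a trimer of 1 alpha, 1 beta and 1 gamma chain that is secreted and polymerises into the sheet under every epithelium and around vessels, nerves and muscle. Integrins are pairs of an alpha and a beta subunit in the plasma membrane, and the pair sets the ligand: laminin, collagen, proteins with the tripeptide RGD such as fibronectin, or counter-receptors on other cells. In the kidney, laminins change in type along the nephron and in the glomerulus, and some integrins are restricted to leukocytes.

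The RNA was total RNA of kidney, on 1 Affymetrix array per group. The control mice were wild type at the inv locus (+/+) and carried the transgene inv-deltaC::GFP, a form of inversin without its C-terminus joined to green fluorescent protein. The cystic mice were homozygous for the mutation (inv/inv) and carried the same transgene. The inv mutant is a model of nephronophthisis type 2, and with this transgene it forms multiple renal cysts without situs defects. The series design gives 4 weeks of age for both groups and mentions 2 kidneys, and how many animals gave the RNA of an array was not clear from it. The labels do not name the promoter of the transgene. The cystic array is labelled female and 28 days old, and the control array has neither label.

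The values were linear MAS5 signals. With 1 array per group there is no replicate and no test, the number of arrays limits the precision, and a difference was called only by its size, at least 2-fold. "Rose" and "fell" below refer to that limit. Different probe sets of a gene are the only repeat measurement, from the same RNA, and their log2 ratios had a pooled SD of 0.29 over 4694 genes and 0.27 over the 13 members with more than 1 probe set above the floor on both arrays. The brightest probe set for the mutated gene Invs read 118 (control) and 15.9 (cystic). Its other probe sets, under the floor on both arrays, read 36 and 22.1, and 5.4 and 54.2. Whether RNA of the transgene, carried by both groups, adds to these readings is not known. The female-specific RNA Xist read 387 and 57.4, and the Y-linked genes Uty (206 and 198) and Kdm5d (152 and 194) were above the floor on both arrays, which goes against the female label of the cystic array. The control array thus held both Xist and Y-linked signal, and whether the RNA of an array came from mice of both sexes is not known. Whether sex bears on the results below was not tested. Kidney markers were present on both arrays, among them the endocytic receptor Lrp2 (5731 and 2461) and uromodulin, Umod (8713 and 8160).

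Laminin and integrin chains were higher in the cystic kidney at more members than not, and by modest amounts. Of the 28 measured members, 24 had a log2 ratio (cystic minus control) above 0, against 57.8% of all 12015 measured genes. The median of the 28 was 0.53, against 0.09 for all genes. For Lama4, Lamb3, Itgam, Itgax, Itgb2 and Itga5 the floors fixed that sign, as only the cystic signal lay above its floor. Itgae was above 0 only because its cystic signal was raised to the floor. The count of 24 is therefore partly set by the floors. With the other 3 scalings 22 or 23 members were above 0. At the 2-fold limit 6 members rose, Lama4, Itgb2, Itga5, Itgax, Lama2 and Itgb4, where 7.06% of all genes rose, and none fell, where 3.78% of all genes fell. For Lama4, Itgb2, Itga5 and Itgax the fold is a lower bound, so their distance from the limit is not known. Each bound holds for the deposited scaling and these floors only. With the other 3 scalings Itga5 (0.94 to 0.98) and Itgax (0.90 to 0.94) were under 2-fold. So were Lama2 (0.90 to 0.94) and Itgb4 (0.84 to 0.87). The measured values just inside it were 2.03-fold for Itgb4 and 2.08-fold for Lama2, and just outside it were Lamb1 with 1.85-fold and Lamb3, whose bound of at least 1.84-fold does not show on which side it lay. With the median signals of the arrays made equal, 2 members rose, Itgb2 and Lama4, where 5.07% of all genes did. That centring moved the median of all genes by -0.16, from 0.09 to -0.07, and the share of higher genes among all genes past 2-fold from 65.1% to 47.5%. Among the 21 members above the floor on both arrays, 2 rose (9.52%) and none fell, against 6.15% of the 10668 such genes that rose, a share near that of the members. Their median was 0.51, against 0.08 for those genes.

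**Figure D1:**
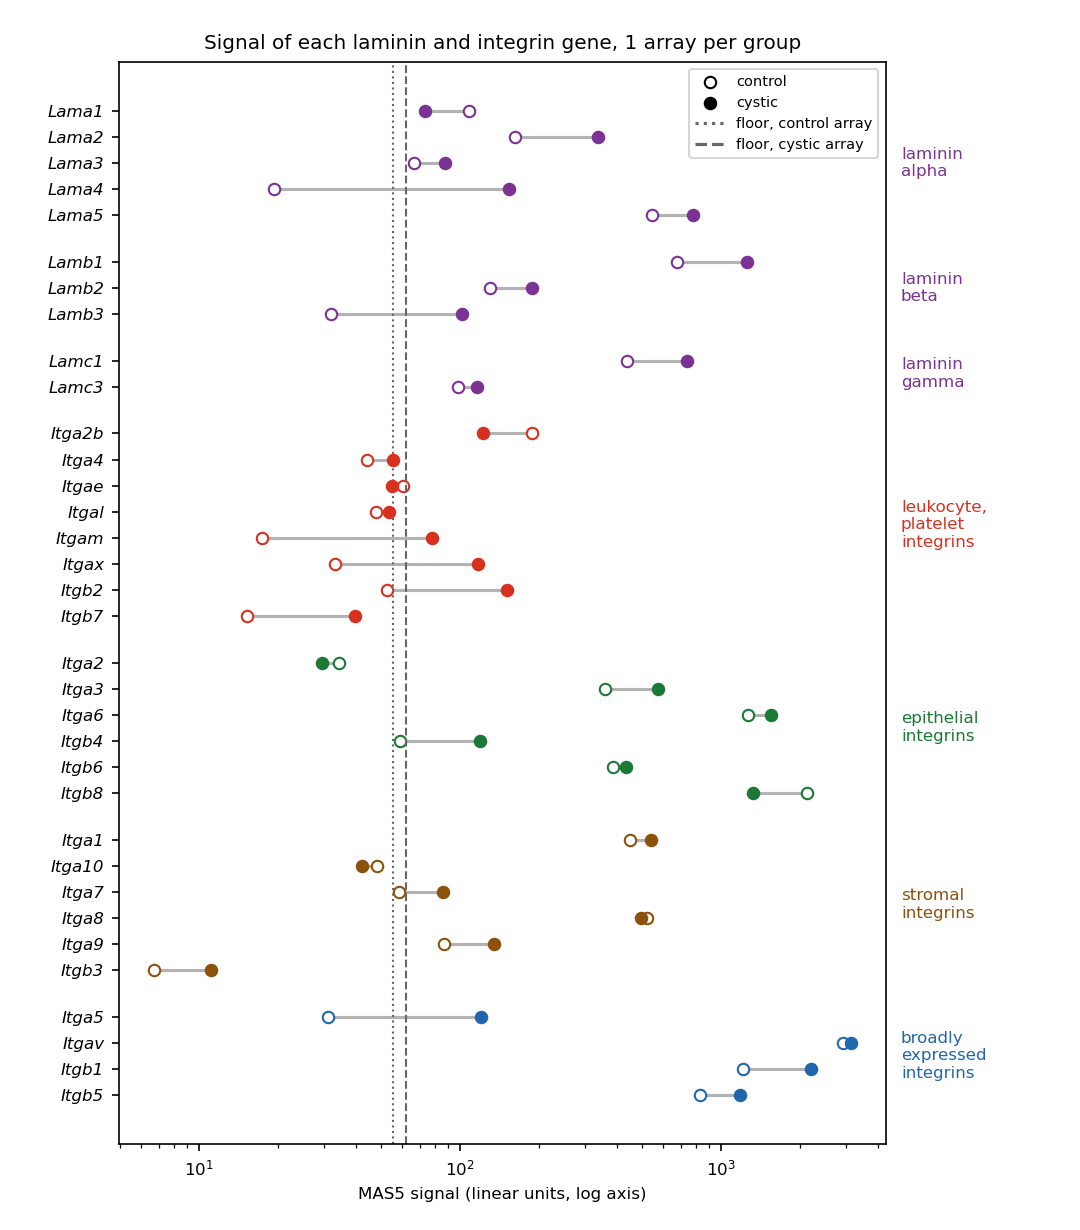
The plot of signals gives the MAS5 signal (log axis) of the probe set that stands for each of the 34 genes, open points for the control and filled points for the cystic array, with the floors of 55.4 and 61.9 as vertical lines. In Lama4, Lamb3, Itgam, Itgax, Itgb2 and Itga5 the control signal lies under its floor and the cystic signal above.

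Each signal under its array's floor (55.4 control, 61.9 cystic) was raised to it, so a ratio against such a signal is a bound and is written as at least N-fold. By class, the median log2 ratio was 0.65 over 10 laminin chains and 0.50 over 18 measured integrins. It was 0.29 over 5 epithelial, 0.42 over 4 stromal and 0.69 over 4 broadly expressed integrins. Of the 5 measured leukocyte and platelet integrins 4 were bounds, and their median of 0.49 is the bound of Itgam, set by the floor. It was 0.25 with the floor at the 40th percentile and 0.85 with no floor. These classes overlapped in their values, and each held at most 2 members past 2-fold.

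**Figure D2:**
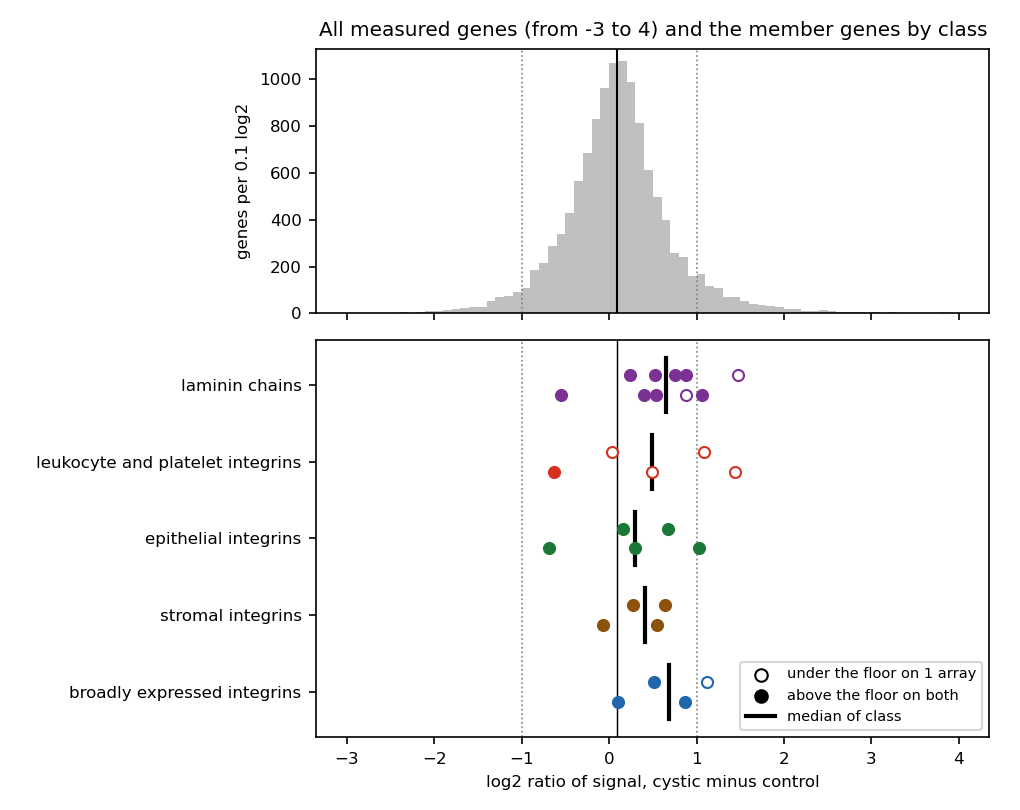
The plot of classes shows the number of all measured genes per 0.1 of log2 ratio (top) and each measured member by class (bottom), with open points for ratios that are bounds, a bar at each class median and dotted lines at 2-fold. Members of every class spread over about 0.71 or more on the log2 scale, and all class medians lie to the right of the median of all genes, 0.09.

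The stretches of DNA before the start sites of 5 members show what stands upstream of genes that rose, one leukocyte chain that shares its partner with another, and Itgb8, which had the lowest ratio with the deposited scaling. Of the 34 members, 22 had an entry in the RefSeq promoter table of GRCm38.p6, 25 entries in all, and of the 6 members that rose these were Lama2, Itga5 and Itgax. The 250 bases before each start site were searched on both strands for the letters GAGGAA (the core bound by the myeloid factor PU.1), TGANTCA (the site of AP-1), GGGCGG (the GC box) and TATAAA (the TATA box). None of these motifs holds another. The sequences run 5′ to 3′ on the gene's strand and capitals mark the matches. Lama2 lies at chr10:27616943-27617192 (- strand), Itga5 at chr15:103366792-103367041 (- strand), Itgax at chr7:128129300-128129549 (+ strand), Itgam at chr7:128062390-128062639 (+ strand) and Itgb8 at chr12:119238277-119238526 (- strand).
Lama2: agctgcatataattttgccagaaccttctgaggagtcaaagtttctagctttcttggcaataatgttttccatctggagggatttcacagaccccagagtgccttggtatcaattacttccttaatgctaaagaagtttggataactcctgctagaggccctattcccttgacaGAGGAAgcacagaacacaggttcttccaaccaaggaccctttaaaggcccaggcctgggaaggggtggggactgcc
Itga5: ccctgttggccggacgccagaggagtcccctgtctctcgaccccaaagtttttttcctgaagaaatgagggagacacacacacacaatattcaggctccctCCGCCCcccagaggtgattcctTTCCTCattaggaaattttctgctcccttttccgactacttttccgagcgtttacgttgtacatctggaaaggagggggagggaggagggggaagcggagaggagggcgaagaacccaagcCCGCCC
Itgax: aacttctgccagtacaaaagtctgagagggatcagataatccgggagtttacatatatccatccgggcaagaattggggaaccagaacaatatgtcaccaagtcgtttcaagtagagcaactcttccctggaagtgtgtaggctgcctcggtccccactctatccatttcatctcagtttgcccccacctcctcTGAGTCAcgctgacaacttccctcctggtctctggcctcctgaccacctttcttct
Itgam: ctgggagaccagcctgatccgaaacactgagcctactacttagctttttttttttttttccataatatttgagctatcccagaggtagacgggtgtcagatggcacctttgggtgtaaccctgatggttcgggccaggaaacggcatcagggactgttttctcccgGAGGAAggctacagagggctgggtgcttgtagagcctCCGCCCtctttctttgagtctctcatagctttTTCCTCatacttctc
Itgb8: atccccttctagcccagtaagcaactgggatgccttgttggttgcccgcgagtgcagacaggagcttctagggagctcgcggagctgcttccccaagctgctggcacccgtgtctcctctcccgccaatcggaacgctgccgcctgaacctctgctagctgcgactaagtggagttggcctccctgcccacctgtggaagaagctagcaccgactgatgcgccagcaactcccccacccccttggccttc
Itgam held 2 matches of GAGGAA, 1 of them reading as TTCCTC just before the start site, and 1 GC box. Itgax held 1 AP-1 match and no other, Lama2 1 match of GAGGAA, Itga5 1 match of GAGGAA and 2 GC boxes, and Itgb8 none of the 4 motifs. Over the members, 12 of 25 entries held GAGGAA (48%), 9 the GC box (36%), 1 the AP-1 site (4%) and none the TATA box. Over all 32851 promoters of the table the shares were 23.3%, 32.7%, 6.75% and 12.4%. A match is a run of letters and says nothing of binding.

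Among laminin alpha chains, which carry the parts that integrins bind, 2 of 5 rose. The signal of Lama4, a chain of vessel walls and of peripheral tissue, was 19.3 (control) and 154 (cystic). That made it at least 2.78-fold higher, and its second probe set (35.5 and 98) at least 1.77-fold higher. Both Lama4 probe sets were under the floor in the control and above it in the cystic kidney. Lama2, the chain of muscle and mesenchymal basement membranes, went from 162 to 337, which was 2.08-fold higher at its single probe set.

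Lama5, the chain of the mature tubular and glomerular basement membrane, went from 544 to 780, a log2 ratio of 0.52, and from 192 to 358 (0.90) at its second probe set. Lama3, the chain of the anchoring laminin of stratified and transitional epithelium, went from 66.6 to 87.8 (0.40), both near the floor. Lama1, the alpha chain of the early embryonic basement membrane, which the adult kidney keeps around its tubules, had a lower signal in the cystic kidney, 73.5 against 108 in the control, a log2 ratio of -0.55. It stayed below 0 under each alternative setting, between -0.75 and -0.10. The 5 alpha chains therefore lay on both sides of 0, with Lama1 at one end and Lama4 and Lama2 at the other.

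The 3 measured beta chains had higher signals in the cystic kidney, and none was counted past 2-fold at its brightest probe set. Lamb1, the beta chain of most tubular and interstitial laminins, went from 678 to 1253, a log2 ratio of 0.88. Its other measured probe sets went from 374 to 785 (1.07) and from 372 to 485 (0.38), so 1 of 3 was past 2-fold. Lamb2, the beta chain of the mature glomerular basement membrane, went from 130 to 189 (0.54). Lamb3, which pairs with Lama3 in the epithelial anchoring laminin, went from 32.1 to 102, at least 1.84-fold higher, a bound that leaves its side of the limit unknown. Lamb4 was not analysed here.

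Of the gamma chains, Lamc1, which is part of most laminin trimers, went from 438 to 740.1, a log2 ratio of 0.76, and from 60.4 to 117 (0.96) at its second probe set. Lamc3 had 98.5 and 116 (0.24) at its brightest and 90.7 and 73.1 (-0.31) at its second, so its direction is not settled. The chains of the widespread tubular trimers, Lama5, Lamb1 and Lamc1, thus each had ratios above 0 at every measured probe set. None passed 2-fold at its brightest probe set, and 57.8% of all measured genes were above 0. Lama1, also kept around adult tubules, was below 0.

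**Figure D3:**
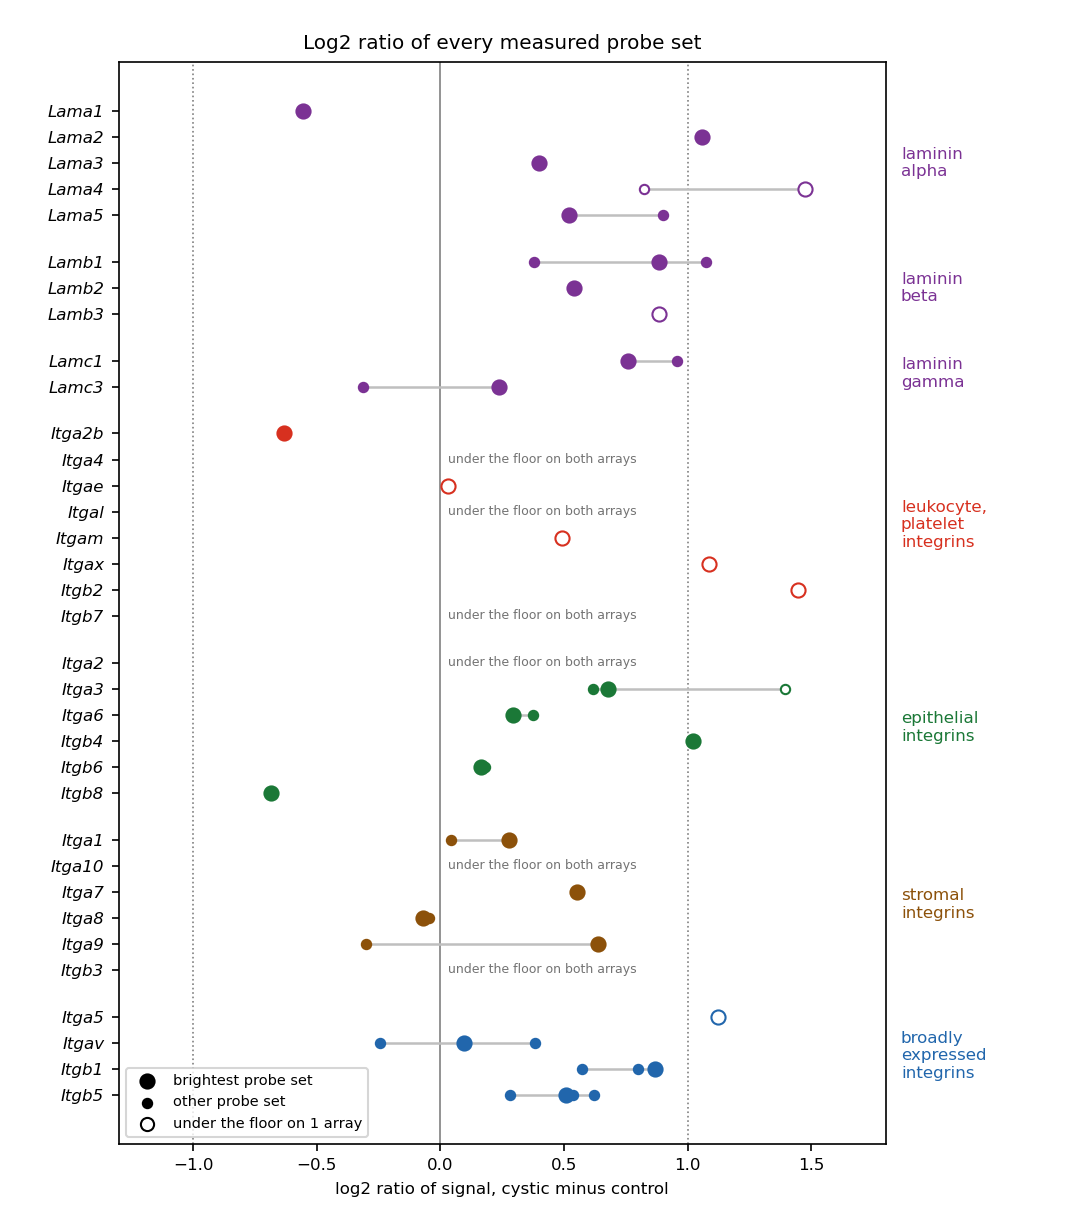
The plot of probe sets shows the log2 ratio of every measured probe set by gene, large points for the brightest and small points for the others, open where 1 array was under the floor. Of 14 genes with more than 1 measured probe set, 11 had the same sign at all of them, and Itga9, Itgav and Lamc3 had both signs. At both Lama4 probe sets and 1 Itga3 probe set only the control was under its floor, which fixed their sign. The same sign at Lama4 is therefore not agreement between readings.

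The integrin subunits listed here as laminin receptors, each subunit under at most 1 ligand, were Itga3, Itga6, Itga7 and Itgb4. All were measured, all had higher signals in the cystic kidney, and 1 of the 4 rose. Itgb4, the subunit that joins Itga6 in hemidesmosomes, went from 58.9 to 120, a 2.03-fold rise at its single probe set, whose name marks it as shared between transcripts, with a control signal just above the floor of 55.4. Itga3, the main laminin receptor subunit of podocytes and of the collecting duct, went from 358 to 574 (0.68). Its second probe set went from 150 to 230 (0.62) and the remaining one from 20.9 to 146, at least 2.63-fold. All 3 Itga3 probe sets read higher in the cystic kidney, and the largest difference was at the probe set with the lowest control signal.

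Itga6, the other laminin receptor subunit of the tubule, went from 1272 to 1559 (0.29) and from 819 to 1063 (0.38) at its second probe set, a small and repeated difference. Itga7, a laminin receptor subunit of muscle, went from 58.6 to 86.0 (0.55). Itgb1, the beta subunit that Itga3, Itga6, Itga7 and most other alpha subunits pair with, went from 1211 to 2210.3, a log2 ratio of 0.87. Its other measured probe sets went from 907 to 1578 (0.80) and from 87.5 to 130 (0.57). Itgb1 did not pass 2-fold with the deposited scaling, and did with quantile normalization, at 1.01.

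The receptors for RGD ligands went both ways. Of 6 measured subunits 1 rose, Itga5, the fibronectin receptor subunit. It went from 31.3 to 121, at least 2.18-fold higher with the deposited scaling and floor. This was 1 of 4 Itga5 probe sets, and the other 3 stayed under the floor in both groups. The name of the measured one carries a mark of sharing too, of another kind than that of Itgb4. Itgb5, a vitronectin receptor subunit, went from 833 to 1186 (0.51), with 0.28, 0.54 and 0.62 at its other probe sets. Itgav, the alpha subunit shared by Itgb5, Itgb6 and Itgb8, had 2938 and 3141 (0.10), with -0.24 and 0.38 at its other measured probe sets. Its log2 ratio was -0.06 with that centring, so its direction is not settled.

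Itgb6, an epithelial subunit that with Itgav frees active TGF-beta from its latent form, had 385 and 431 (0.16) and 314 and 356 (0.18) at its probe sets. Itgb8, which shares that role, went from 2131 to 1325, a log2 ratio of -0.68 at its single probe set. This was the lowest ratio of all members with the deposited scaling and with median centring, and with quantile normalization and loess Itga2b and Lama1 lay below it. It was between -0.84 and -0.54 under the other 3 scalings. Itga8, which binds nephronectin and is carried by mesangial and interstitial cells, had 520 and 495 (-0.07) and 197 and 191 (-0.04). Its signals differed by far less than the SD between probe sets of a gene. The median of the 6 measured RGD receptors was 0.13, and -0.03 with median centring.

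Of the collagen receptors, Itga1, a subunit of mesangial, vascular and interstitial cells, had 447 and 541 (0.28) and 194 and 200.3 (0.04). Itga2 (34.3 and 29.6) and Itga10 (48.1 and 42.1) were under the floor on both arrays, and Itga11 was not analysed here. Itga9, a receptor subunit for tenascin and other matrix ligands, had 86.5 and 135 (0.64) at the probe set that stands for it and 93.6 and 76.0 (-0.30) at its second. These probe sets went opposite ways by more than the SD between probe sets, so its direction is not settled. Itgb3, the beta subunit of platelets and of some stromal cells, was under the floor on both arrays, with 6.7 and 11.1. Itgb3 was counted with the stromal integrins and not with the leukocyte and platelet class. Among the 16 integrins placed outside that class, 13 were measured and 2 rose, Itgb4 and Itga5.

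Of 8 leukocyte and platelet integrins, 5 were measured and 2 rose. Itgb2, the beta subunit of the leukocyte integrins, went from 52.4 to 151, at least 2.72-fold higher. Itgax, the alpha subunit of dendritic cells and macrophages, went from 33.3 to 118, at least 2.12-fold with the deposited scaling and floor. Itgam, the alpha subunit of macrophages, monocytes and neutrophils, went from 17.5 to 78.0, at least 1.41-fold, a bound that does not show whether the difference passed 2-fold. Itgb2, Itgax and Itgam thus had control signals under the floor and cystic signals above it, and their log2 ratios are lower limits.

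No ratio could be read for Itgal, Itgb7 and Itga4, which did not reach the floor on either array. Itgal, which pairs with Itgb2 on lymphocytes, had 47.7 and 53.5, and Itgb7, of gut-homing lymphocytes, had 15.3 and 39.5, which would pass 2-fold if no floor were set. Itga4, of lymphocytes and monocytes, had 43.9 and 55.3 at its brightest probe set, and all 5 of its probe sets stayed under the floor in both groups. Itgae, of lymphocytes within epithelia, had 60.6 and 54.7. As neither value reached the cystic floor of 61.9, its direction is not settled. Itga2b, the platelet and megakaryocyte subunit, was the only one of this class with a measured decrease in signal, from 189 to 122, a log2 ratio of -0.63.

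Markers of the same cells were read beside these chains. The shares to set beside the marker counts, here and in the next paragraph, are the 7.06% of all measured genes that rose and the 3.78% that fell. Of 9 macrophage and myeloid markers 8 rose, among them Cd68 (52.9 and 240), Adgre1 (68.6 and 307) and the general leukocyte marker Ptprc (106 and 383). The control signal of Cd68 was under its floor, so its ratio is a bound. The summed signals of the 9 were 1880 (control) and 6732 (cystic). Csf1r (1198 and 2370, a log2 ratio of 0.98) was the marker that did not rise, and the largest part of the control sum. Of 6 lymphocyte markers 1 was measured, Cd8a (79.5 and 34.2). The summed signals of the 6 were 218 and 129, mostly from values under the floor, and their order is not interpreted. The platelet marker Pf4 went from 88.7 to 386, while Gp9 (6.7 and 4.8) and Ppbp (19.7 and 12) were under the floor on both arrays. The fourth platelet marker, Gp1bb, had 57.2 and 59.4, the latter under its floor. Over all 4 the summed signals were 172 and 462, a difference that came from Pf4, so the sum is not read as a platelet result. In whole kidney RNA, more cells of a type and more RNA per cell cannot be told apart.

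For the other chains, 7 of 8 fibroblast and smooth muscle markers rose, with summed signals of 4109 and 20999.5, and the eighth, Myh11 (51.6 and 58.6), was under the floor on both arrays. None of 6 endothelial markers rose or fell (2069 and 2165). Of 6 proximal tubule markers 4 fell and none rose (28562 and 14612), as did 1 of 4 each for the loop and distal tubule (22169 and 15505), the collecting duct (2979 and 2934) and podocytes (1443 and 1011). The 4 urothelial markers had 323 and 488 and none passed 2-fold. No marker was at 0 on either array. The part of these cell types in the ratios of the laminin and integrin chains was not tested.

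**Figure D4:**
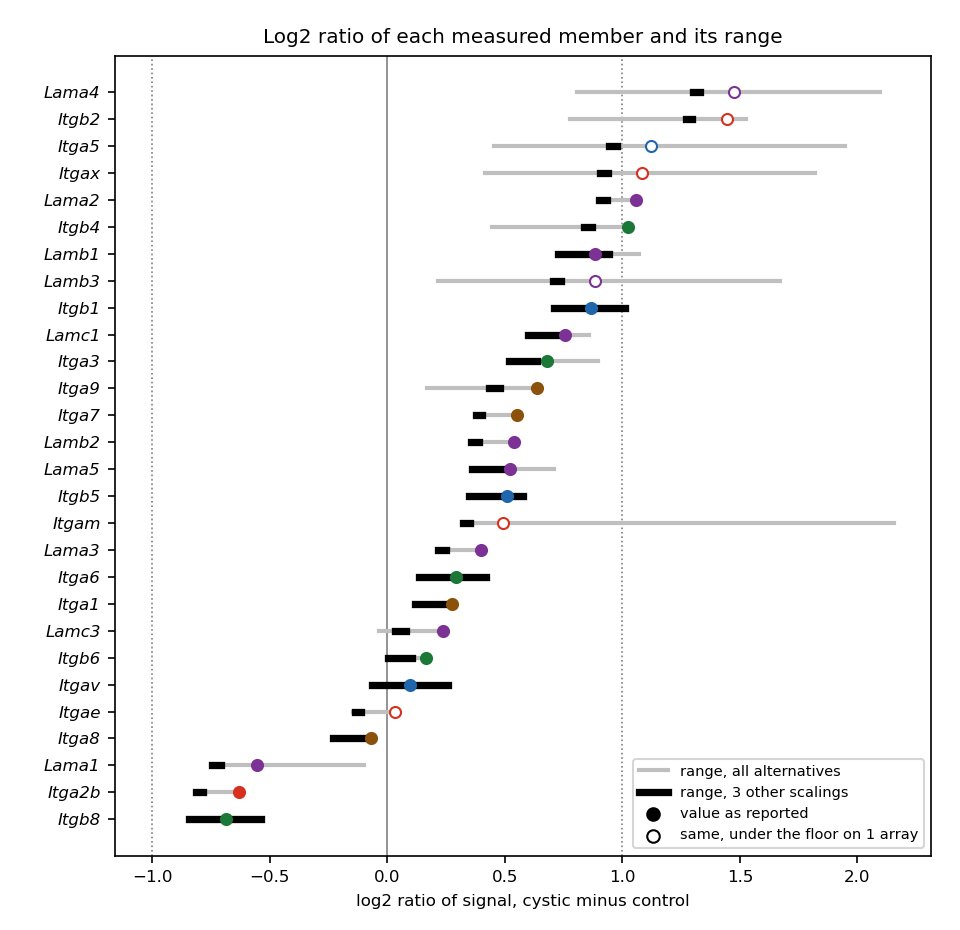
The plot of ranges gives each measured member's log2 ratio, with black bars for its range under the 3 other scalings and grey bars for its range under all alternatives tried. The 3 members at the bottom, Lama1, Itga2b and Itgb8, stay below 0 throughout, and the widest ranges belong to members whose control signal was under the floor.

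The molecules that laminins and integrins work with were taken from gene lists and are given by their counts. Of all measured genes 7.06% rose and 3.78% fell, with a median log2 ratio of 0.09. As few of all genes fell, a list in which none did is not read as a result. Of 18 basement membrane partners 6 rose and none fell, and their median log2 ratio was 0.84. The highest were the matricellular protein Smoc2 (1.99), Frem1 of the embryonic Fraser complex (1.39) and the collagens Col15a1 (1.34) and Col18a1 (1.33). The lowest were Col4a3 (-0.70), a chain of the mature glomerular basement membrane, and the netrin Ntn1 (-0.47). Nid1 and Agrn were picked after their values were seen. Nid1, which links laminin to type IV collagen, went from 735 to 1478 (1.01), and Agrn, which links laminin to the cell surface, went from 589 to 1425 (1.28). Laminin's partners and the laminin chains thus shared the direction of most members, with Lama1 and Col4a3 among the exceptions.

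Of 7 laminin receptors that are not integrins, 4 rose, none fell and the median was 1.64. Cd44, a hyaluronan and matrix receptor, went from 34.5 to 289, at least 5.21-fold. The syndecan Sdc1 (1.96), the galectin Lgals3 (1.86) and Bcam, a receptor for Lama5 (703 and 2187, 1.64), followed. Rpsa, a ribosomal protein also named as a laminin receptor, had 0.52 and Sdc4 0.03.

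Of 21 measured integrin ligands among 25 matched, 14 rose and 1 fell, with a median of 1.91. The fibrinogen chains Fgg (3.84) and Fga (2.59), ligands of Itgam with Itgb2 and of Itga2b with Itgb3, and Icam1 (2.70), the counter-receptor of Itgal and Itgam, were among the highest. Tnc, the tenascin that Itga9 binds, was at least 9.56-fold higher. The lowest were Egfl6 (-1.17) and nephronectin, Npnt (3167 and 3634, 0.20), both basement membrane ligands of Itga8. Fn1, the fibronectin that Itga5 binds, was picked after its value was seen and went from 829.8 to 3868 (2.22).

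Inside the cell, 6 of 34 measured genes of the adhesion machinery rose, none fell and the median was 0.38. The highest were Fermt3, the kindlin of blood cells that activates Itgb2 (40 and 218, at least 3.94-fold), the actin cross-linkers Actn1 (1.97) and Flna (1.61), and the focal adhesion adaptor Tgfb1i1 (1.84). The lowest were the kinase Ptk2b (-0.69) and Itgb3bp (-0.35). Fermt2, the kindlin of other cells, had 0.39, and the integrin activator Tln1 0.36, both picked after their values were seen. By these medians the ligands and the receptors outside the integrin family stood further from 0 than the integrin subunits and their cytoplasmic partners. This difference between lists was not tested. The lists were chosen with earlier results of these data known, so no conclusion is drawn from it. Bounds set by the floor made up 5 of 18 integrin, 3 of 21 ligand, 1 of 7 other receptor and 3 of 34 adhesion ratios.

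**Figure D5:**
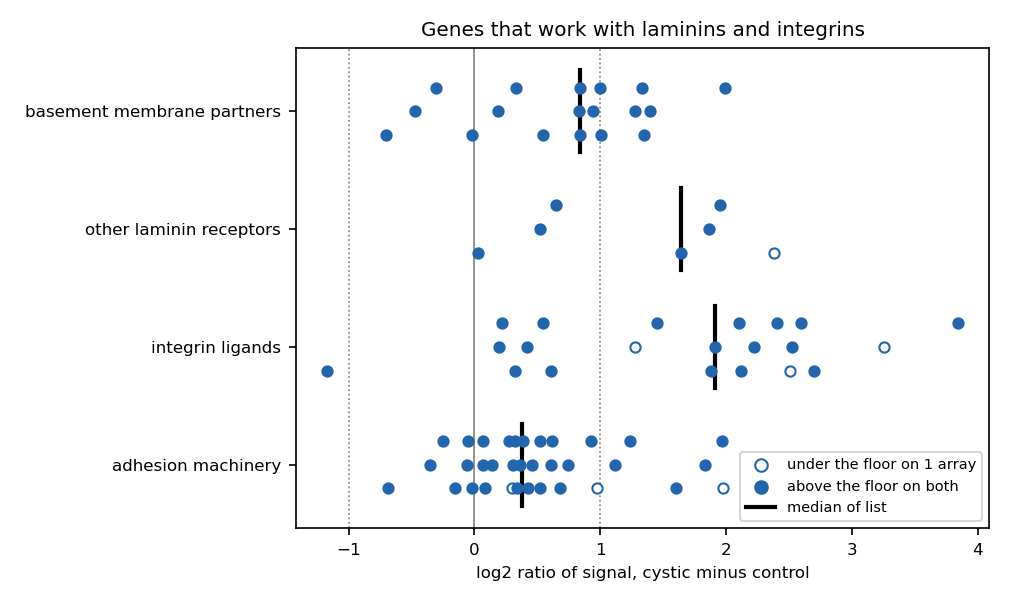
The plot of partners shows the log2 ratio of each measured gene in the 4 lists, open points for bounds, a bar at each median and dotted lines at 2-fold. Most integrin ligands lie to the right of 2-fold and most adhesion genes between the dotted lines.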

How the data were processed

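Total RNA of kidney was measured on 1 array per group, and sample titles gave the groups. The authors deposited 1 intensity per probe set, a linear signal made with MAS5, per the submitters' processing notes. Its version, its scaling target and any detection calls are not given in the sources used here, so that scaling was kept (2% trimmed means over all probe sets, 179 and 182). After 64 control probe sets were left out, each array's floor was its median. Probe sets below both floors count as not measured, and a signal under it on 1 array was raised to it. For each gene stood its brightest probe set by mean log2 value, floor applied, of those naming it alone. Of the probe sets, 34945 named 1 gene, 932 several and 9160 none here, and the gene identifiers of 34741 were found in the RefSeq table of GRCm38.p6, used for symbols. With 1 array per group no test was run. Genes past 2-fold were counted beside all 12015 measured genes. Every member is named, and of each partner list the 4 highest and 2 lowest. Members, classes and lists were chosen with earlier results of these data known. In all, 8 alternatives were planned and 2 were added after seeing the data. The steps were run in Python 3.11.15 with numpy 2.4.6, pandas 2.3.3 and statsmodels 0.14.6. Those of the main setting were tested on simulated data, with differences placed only in genes of above-median signal. The alternatives were not run on simulated data.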

Additional observations from a re-analysis of the deposited data

How the results depend on the processing

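The count of members that rose, 6, was 2 with median centring (5.07% of all genes rose), 3 with quantile normalization (5.54%), 2 with loess (5.75%) and, where the floor was the 60th percentile, 1 of 24 (Lama2, 6.06%). A floor at the 40th percentile gave 8 of 32 (7.27%), and it was 9 of 34 with no floor (11.5%). With a limit of 1.5-fold, chosen after seeing the data, 12 members rose and 2 fell (Itga2b and Itgb8), where 16.4% and 10.8% of all genes did. Choosing the brightest probe set without the floor, also added after seeing the data, gave 5, without Lama4 (6.96%). Leaving out shared probe sets gave 5 of 22 (6.67%), where Itga5 and Itgb4 were no longer measured and Lamb1 rose. No member fell 2-fold under any alternative that kept the 2-fold limit. The median of the leukocyte and platelet integrins, 0.49, was 0.25 with the floor at the 40th percentile, 0.85 with no floor and 0.79 without probe sets marked as shared. The medians of the other classes moved by less than the SD between probe sets, 0.29. Of 242 values of single members under the alternatives, 223 moved by less than that SD. Much of that count was fixed in advance. Median centring moved every ratio by the same amount, less than that SD. Changes of the floor mostly left members above the floor on both arrays as they were. The count is therefore not read as a measure of stability. Itgav and Itgae changed sign under a scaling, and Lamc3 (-0.04) when its probe sets were averaged. Signals near the floor limit what can be read: for 7 of 28 measured members the ratio is a bound. No paired analysis was possible because each group has 1 array.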

Other observations

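Integrin-like genes outside the rule read low. Itgb2l, a relative of Itgb2, had 3 probe sets, with control signals of 24.5 to 44.4 and cystic signals of 9.6 to 31.5, and Itgbl1, a secreted protein with integrin-like repeats, had 15.6 and 19.8. All were under the floor on both arrays.

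The 5 Itga4 probe sets, all under the floor on both arrays, had signals of 1.2 to 43.9 (control) and 5.8 to 55.3 (cystic). Each read higher in the cystic kidney, in a range where the order of signals is not interpreted here.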
